A study of Mus musculus with 3 samples.

Results

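Of the 28381 sites at which TBX5 was called in fetal mouse lung, 6642 (23.4%, exact 95% binomial interval 22.9 to 23.9%) lay between genes and within reach of one: outside every protein-coding gene, over 1 kb and up to 100 kb from the nearest gene end. These intergenic peaks were chosen by position alone. The position of a peak was its summit, the base with the strongest signal. There were 13552 summits outside protein-coding genes, 7189 of them in that range of distances, and 547 of those were set aside because a long non-coding RNA (lncRNA) gene began or ended within 1 kb. The remaining peaks of the list lay inside genes (11753), within 1 kb of a gene end (4981), over 100 kb from any (4264) or within 1 kb of a lncRNA end (741). The term gene end stands for the first or the last annotated base of a gene, and genes are RefSeq genes on build mm10.

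The peaks come from chromatin immunoprecipitation and sequencing (ChIP-seq) of whole embryonic lungs taken from CD-1 mice at E14.5, when the airways branch. The 2 ChIP libraries used a TBX5 antibody, with 1 whole lung going into each, and 1 further library held input chromatin; the labels name no genetic change and no treatment. All 3 titles say lung, while heart stands in the source field of the second ChIP library and of the input library. What was deposited is 1 peak list without values for single libraries, so no spread between replicates could be measured, no test between samples was possible and depth is unknown. A whole lung holds mesenchyme, epithelium, vessels and nerves, and a peak does not tell in which of these cells TBX5 was bound.

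TBX5 belongs to the T-box transcription factors and is known from the heart, the forelimb and lung mesenchyme, where it acts with its relative TBX4 in lung budding and airway branching. T-box proteins bind DNA that holds the half-site AGGTGT. Binding between genes is often at enhancers, elements that raise transcription from a distance, and the gene they act on need not be the nearest one. Peaks are therefore assigned here to the nearest gene as a description of place and not of control.

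Some of these sites carried annotated sequence of their own. Starts of transcripts that lie inside a lncRNA gene were not removed by the rule, and 16 intergenic peaks touched such a start window, a RefSeq stretch of 300 bases that runs from 250 bases before the start to 50 after it. In 8 of them the summit lay in the window. Of these 8, the windows of 2 lncRNAs of no known function are printed. Gm44507 is shown because it alone of the 8 holds the half-site, and Gm30262 because its peak is the strongest of the 8. They are Gm44507 (chr7:98415566-98415865, minus strand) and Gm30262 (chr10:111595422-111595721, plus strand), from 5′ to 3′, with AGGTGT in capitals (RefSeq, GRCm38.p6, the assembly of mm10, from strain C57BL/6J and not CD-1).
Gm44507: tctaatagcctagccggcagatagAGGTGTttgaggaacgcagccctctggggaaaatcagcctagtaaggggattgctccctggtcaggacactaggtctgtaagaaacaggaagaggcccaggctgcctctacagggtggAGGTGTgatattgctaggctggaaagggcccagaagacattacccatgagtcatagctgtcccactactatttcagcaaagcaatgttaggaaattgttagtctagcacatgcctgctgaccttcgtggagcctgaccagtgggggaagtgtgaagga
Gm30262: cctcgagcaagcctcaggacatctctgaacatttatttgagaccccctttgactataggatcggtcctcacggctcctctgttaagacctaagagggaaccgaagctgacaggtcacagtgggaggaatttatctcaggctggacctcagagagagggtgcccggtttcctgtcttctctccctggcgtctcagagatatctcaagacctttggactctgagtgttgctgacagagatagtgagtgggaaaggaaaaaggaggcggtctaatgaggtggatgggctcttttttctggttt

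The summit of the Gm44507 peak, with 8.23-fold enrichment, fell on base 143 of its window. That is the first base of the second AGGTGT, which spans bases 143 to 148 and continues as AGGTGTGA, the longer T-box site. The first AGGTGT spans bases 25 to 30. The peak at the Gm30262 window was stronger, 31.6-fold, with its summit on base 259, and these letters are not in that window on either strand. Searched on both strands, AGGTGT was found in 13.7% of all 32817 RefSeq start windows and AGGTGTGA, which contains it, in 1.27%. Of the 20 windows under intergenic peaks, overlapping windows of 1 gene counted apart, 3 held the shorter motif and 2 the longer. Both windows with the longer motif are overlapping windows of Gm44507 and hold the same site, and the third with the shorter one is that of Gm30234, whose summit lay outside it. A match describes the letters and does not show a bound site.

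MicroRNA (miRNA) genes also stood beside intergenic peaks. A mature miRNA silences messenger RNAs that pair with its seed, bases 2 to 8. There were 15 intergenic peaks within 2 kb of 18 miRNA hairpins, and 48 within 10 kb of 56 hairpins. Of the 217 hairpins that themselves lie between genes in the same range of distances, 16 (7.37%) had an intergenic peak within 2 kb. Neighbouring hairpins can share a peak, as Mir17, Mir18, Mir19a and Mir20a do and as Mir212 and Mir132 do, so hairpins are not separate cases. The share of all eligible sequence within 2 kb of an intergenic peak was not computed, so the 7.37% has no background beside it. The mature sequences of 9 of these miRNAs are printed with the seed in capitals (RefSeq, GRCm38.p6), chosen because the miRNA is well known and the summit lies within 2 kb of its hairpin.
miR-132-3p: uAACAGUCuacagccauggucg
miR-212-3p: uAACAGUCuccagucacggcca
miR-17-5p: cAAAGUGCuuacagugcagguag
miR-20a-5p: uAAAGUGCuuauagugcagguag
let-7i-5p: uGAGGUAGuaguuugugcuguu
miR-30a-5p: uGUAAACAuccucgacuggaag
miR-34a-5p: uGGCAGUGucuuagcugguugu
miR-210-3p: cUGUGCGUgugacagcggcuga
miR-193a-3p: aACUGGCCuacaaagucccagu

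The first pair share the seed AACAGUC and come from neighbouring hairpins on chromosome 11. The summit of 1 peak (chr11:75173245-75173569, 4.62-fold) lay inside the Mir212 hairpin and 0.285 kb upstream of Mir132. The second pair share the seed AAAGUGC and belong to the Mir17 to Mir92-1 cluster, in which many hairpins are made from 1 transcript. A peak of 5.49-fold lay 1.48 kb upstream of the first hairpin of that cluster. The other summit inside a hairpin of the RefSeq table was at Mir30a (chr1:23272221-23272409, 4.71-fold). Peaks upstream of the hairpins of let-7i, an miRNA of differentiating cells, and of miR-210, which is induced by low oxygen, had 6.78 and 6.89-fold enrichment. The peak 0.671 kb upstream of Mir193a had 4.46-fold. All of these stood below 10-fold. The strongest within 2 kb was at Mir34a, whose miRNA is induced by p53: a peak of 14.99-fold lay 1.77 kb downstream of the hairpin (chr4:150070023-150070489). Within 10 kb, 8 of the 48 peaks reached 10-fold, and the highest, 16.6-fold, lay 2.51 kb downstream of Mir7688, of which no function is given here. The miRNA and lncRNA windows were looked at after the values of the list had been seen.

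Intergenic peaks had the same median strength as peaks inside genes. Strength is the fold enrichment at the summit, the ratio of ChIP signal to local background that the authors' peak caller gave. Its median over the intergenic peaks was 6.60 (quartiles 5.18 and 9.67, range 2.28 to 84.9), against 6.60 inside genes (6.595 before rounding), 6.85 in the deserts over 100 kb away, 6.42 at lncRNA ends and 5.49 at gene ends. The list as a whole has 21.2% of its peaks at or over 10-fold. Of the intergenic peaks, 1547 reached that level (23.3%, exact 95% binomial interval 22.3 to 24.3%). At or over 50-fold were 28, of 81 in the whole list, and 1349 (20.3%) were under 5-fold, against 23.8% of the whole list. The share at 10-fold was 23.1% inside genes, 26.9% in the deserts, 23.5% at lncRNA ends and 8.65% at gene ends (7.89 to 9.47%). The intervals cover counting error only, and peaks of 1 list are not replicates.

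**Figure D1:**
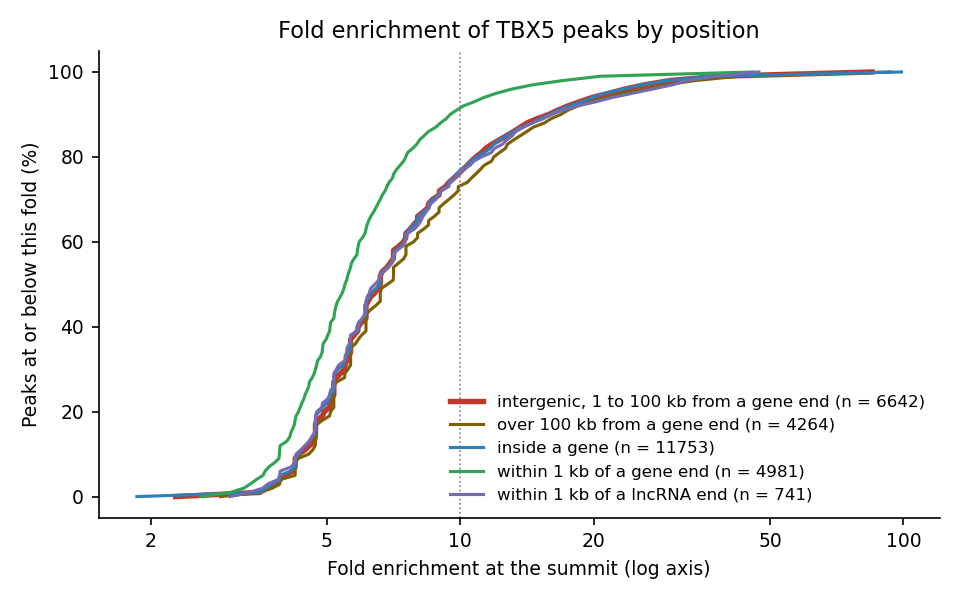
Percentage of peaks at or below each fold enrichment (horizontal log axis) for the 6642 intergenic peaks and the 4 other positions, 1 line each, with 10-fold dotted. The intergenic line runs with that of peaks inside genes, and 23.3% of intergenic peaks against 8.65% of gene-end peaks lie at or beyond 10-fold.

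A second measure of strength was statistical. Peaks were ranked by the −log10 of the q-value, a p-value adjusted for the number of places examined, as the caller gave it. The 5000 highest make up 17.6% of the list, and 1247 of them were intergenic, which is 18.8% of the intergenic peaks (17.8 to 19.7%). At the very top the share of intergenic peaks varied: 1 of the 10 highest, 33 of the 100 highest and 267 of the 1000 highest (26.7%). Widths were ordinary, with a median of 291 bp (range 189 to 1966 bp) against 291 bp over the whole list. There were 175 peaks (2.64%) of 800 bp or wider, against 2.75% of the whole list. Stronger peaks were wider (Spearman's rho 0.653 across the 6642 peaks, a description of values read from the same signal).

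The intergenic peaks are described next in order of strength. First by −log10 q, and sixth in the whole list, was a peak of 84.9-fold and 1601 bp on chromosome 14 (chr14:21903472-21905072). It lay 47.1 kb from A430057M04Rik, an uncharacterised gene, and 79.97 kb from Zfp503, which encodes a zinc finger repressor of transcription. The second had 79.0-fold (chr11:8813959-8814979), 11.1 kb downstream of Pkd1l1, a polycystin gene of left-right patterning, and 149.8 kb from Tns3, which encodes the focal adhesion protein tensin 3. The third had 75.6-fold (chr2:167583133-167584006), 24.2 kb from Ube2v1, a ubiquitin-conjugating enzyme variant, and 40.6 kb from Snai1, which encodes a repressor of epithelial genes. The fourth had 82.5-fold (chr12:17093821-17094431), 78.0 kb from the potassium channel gene Kcnf1 and 82.3 kb from 2410004P03Rik. The fifth had 71.6-fold between the serine protease genes Prss27 and Prss22, 17.4 kb and 20.2 kb away. At Kcnf1 and at Prss27 the far gene was nearly as close as the near one.

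The next peaks lay beside genes of varied function. The sixth, 62.7-fold (chr1:184687510-184687990), lay 39.4 kb from Hlx, a homeobox gene of gut and liver mesenchyme, with Dusp10, a MAP kinase phosphatase gene, 612.1 kb to the other side. A peak of 63.6-fold (chr6:34552355-34553038) lay 45.8 kb upstream of Cald1, which encodes the smooth muscle regulator caldesmon, and 47.5 kb from Bpgm, a gene of red cell metabolism. Irf8, a transcription factor gene of myeloid cells, and Cox4i1, a subunit gene of cytochrome oxidase, flanked a peak of 56.9-fold. Lox, whose product crosslinks collagen and elastin, lay 83.7 kb from a peak of 62.7-fold that was 2.33 kb from Zfp474. Foxa2, a forkhead gene of endoderm, was the far neighbour, at 326.8 kb, of a peak of 66.9-fold that lay 21.6 kb upstream of the somatostatin receptor gene Sstr4.

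The remaining peaks among the 20 highest had 46.0 to 62.7-fold enrichment. Their flanking pairs, nearest gene first, were Rap2a and Mbnl2, Lrmda and Kcnma1, Gpbp1 and Actbl2, Lbh and Lclat1, Runx1t1 and Triqk, Rgs4 and Ccdc190, Slc8a1 and Pkdcc, Sh3d19 and Glt28d2, Adgrv1 and Arrdc3, and Chn2 and Cpvl. Kcnma1 encodes a calcium-activated potassium channel of smooth muscle, Slc8a1 a sodium-calcium exchanger, Mbnl2 a splicing regulator, Runx1t1 a corepressor and Rgs4 a regulator of G protein signalling. The nearest gene of the 20 was 2.33 to 80.8 kb away, and the far one up to 1417 kb (Pkdcc). The 3 peaks at Rgs4, Slc8a1 and Sh3d19 had the same fold, 59.8, and the same −log10 q, 201.9.

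Intergenic peaks were spread over the whole range of distances from genes. Over the 774.1 Mb of sequence in which a summit would have met the rule, there were 8.57 peaks per Mb (exact 95% Poisson interval 8.37 to 8.78, counting error only; 5 peaks beyond the first or last gene of a chromosome left out). The median distance was 26.7 kb (quartiles 10.5 and 52.9 kb). From 1 to 2 kb from a gene end the density was 8.95 per Mb (7.92 to 10.1; 272 peaks). It was 7.33 from 2 to 5 kb (6.74 to 7.96; 572 peaks) and 7.61 from 5 to 10 kb (7.08 to 8.17; 761). Farther out it was 8.21 from 10 to 20 kb (7.74 to 8.70; 1140), 9.09 from 20 to 50 kb (8.71 to 9.49; 2080) and 9.14 from 50 to 100 kb (8.73 to 9.57; 1812). The lowest values thus stood from 2 to 10 kb and the highest beyond 20 kb, with the innermost band close to the latter. The density at 1 to 2 kb was 0.979 times that at 50 to 100 kb, and 1.54 times when distances were taken from all annotated genes, non-coding ones included.

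The density of strong peaks was lowest from 5 to 10 kb. Peaks at 10-fold or more had densities of 1.45 per Mb from 1 to 2 kb (1.05 to 1.94; 44 peaks), 1.69 from 2 to 5 kb (1.42 to 2.01; 132) and 1.41 from 5 to 10 kb (1.19 to 1.66; 141). Beyond 10 kb the densities were 2.10, 2.26 and 2.12 per Mb in the same 3 bands as above, each interval lying above that of the 5 to 10 kb band. The intervals of the 10 to 20 kb band (1.86 to 2.35) and the 50 to 100 kb band (1.93 to 2.34) overlapped those of both bands within 5 kb. The share at 10-fold or more was 16.2% from 1 to 2 kb, 23.0% from 2 to 5 kb, 18.5% from 5 to 10 kb and 23.2% from 50 to 100 kb. The median fold was 5.83 from 1 to 2 kb and 6.26 from 5 to 10 kb, and 6.60 in each of the other bands. Within single peaks the relation was slight: rho between fold and distance was 0.044 across the intergenic peaks.

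At the borders of the rule the values ran on. The 74 peaks from 0.8 to 1 kb, just outside, had a median of 6.46-fold with 12 at 10-fold or more, and the 67 from 1 to 1.2 kb, just inside, 5.65-fold with 9. The 155 from 95 to 100 kb had 7.06-fold with 42 at 10-fold or more, and the 134 from 100 to 105 kb, just outside, 7.07-fold with 38.

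The side of the nearest gene on which a peak lay could be read for 5067 intergenic peaks, those whose gene has a strand in the RefSeq start windows. Upstream of the gene, beyond its start, lay 2592 (51.2%, 49.8 to 52.5%; 47.2% when all annotated genes were used) and downstream, beyond its last base, 2475. Because upstream sequence was more plentiful, the density was 7.97 per Mb upstream (7.66 to 8.28) and 8.84 downstream (8.49 to 9.19). The gap was widest near the gene. From 2 to 5 kb the density was 5.71 upstream (4.92 to 6.60) and 8.41 downstream (7.40 to 9.52), and from 1 to 2 kb 7.33 and 10.1 with intervals that overlap. From 50 to 100 kb it was 9.13 and 8.92. By the directions of the flanking genes, intervals between the last bases of both had 9.21 peaks per Mb (8.61 to 9.84), those between the starts of both 8.25 (7.78 to 8.75) and those between a start and a last base 8.14 (7.81 to 8.47).

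**Figure D2:**
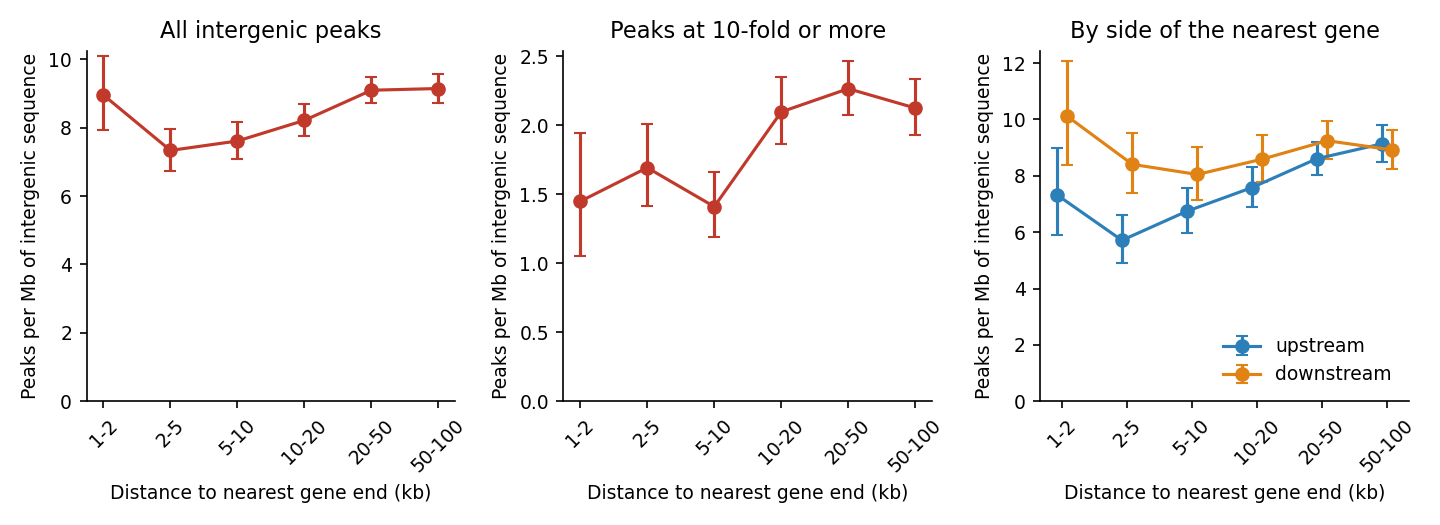
Intergenic peaks per Mb of eligible intergenic sequence (vertical axis from 0) by distance to the nearest gene end in kb, for all peaks, for peaks at 10-fold or more and by side of the gene, with exact 95% Poisson intervals as bars. The density of peaks at 10-fold or more is 1.41 to 1.69 per Mb within 10 kb and 2.10 to 2.26 beyond, and the upstream side is lowest from 2 to 5 kb (5.71 per Mb).

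Most intervals between genes held no intergenic peak. Of the 16506 intervals between neighbouring protein-coding genes that hold eligible sequence, 2923 (17.7%) had an intergenic peak: 1496 had 1, 1110 had 2 to 4 and 317 had 5 or more. Those 317 held 33.4% of the peaks. The share of intervals with a peak was 2.51% of those from 1 to 10 kb long, 23.1% from 30 to 100 kb and 58.5% from 200 to 500 kb. Per Mb of eligible sequence the spread was narrower, from 6.68 in intervals of 10 to 30 kb to 9.78 in those of 200 to 500 kb, and 7.46 in those over 500 kb. Of the intergenic peaks, 3456 (52.0%, 50.8 to 53.2%) had another summit within 10 kb, against 50.1% of all peaks and 53.3% of those inside genes, and in 84.5% of these the nearest was another intergenic peak, in 8.07% a gene-end peak. The share with such a neighbour was 36.1% among the 50% of peaks with the highest −log10 q.

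The interval with the most intergenic peaks lay between Ercc6l2, a DNA repair gene, and Hsd17b3, a gene of testosterone synthesis, on chromosome 13 (chr13:63900303-64058273, 158 kb). It held 22 peaks, 10 of them at 10-fold or more, with a median of 9.64-fold and a range of 3.66 to 39.6. Ptch1, the hedgehog receptor gene, lies on the same chromosome beyond Ercc6l2, and the 22 summits lay 341.9 to 466.8 kb upstream of its start. The highest peak (chr13:64002997-64003547) was 1 of a run of 7 spread over 22.9 kb with a median of 14.54-fold. Its median fold was above the 6.60 of all intergenic peaks, so the interval held strong peaks as well as many.

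Other crowded intervals were named by the same rule. Nrep and Epb41l4a enclosed 16 peaks (up to 40.5-fold), Rad51b and Zfp36l1 14 (36.9-fold) and Hunk and Mis18a 14 (19.6-fold). Phlda1 and Krr1 enclosed 13 (44.1-fold), 7 of them at 10-fold or more, and the Gm30262 peak shown above was among these. Nxnl2 and S1pr3, a receptor gene for sphingosine 1-phosphate, enclosed 13 (40.8-fold), as did Cdc7 and Tgfbr3, a TGF-beta co-receptor gene (22.0-fold), and Plxnc1 and Cradd (19.3-fold). Mpdz and Nfib enclosed 12 (41.5-fold). These counts cover intergenic peaks only. Peaks over 100 kb from a gene end or at lncRNA ends are not in them. Of those there were 33 in the Mpdz interval, 17 in the Phlda1 interval and 11 in the Rad51b interval. The other intervals named so far, that of Ercc6l2 included, had 0 to 4. The median fold of the intergenic peaks ran from 5.42 in the Rad51b interval to 10.5 in the Phlda1 interval. In some of these intervals 1 intergenic peak was far above the other intergenic ones. At Rad51b the highest was 36.9-fold and the next 10.4-fold, at Nrep 40.5 and 13.7-fold and at Mpdz 41.5 and 14.4-fold. In the Cdc7 and Plxnc1 intervals the 2 highest were close to each other, 22.0 and 18.1-fold and 19.3 and 15.2-fold.

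The interval between Snai1 and Ube2v1 was the most crowded for its length among these, with 12 peaks in 64.8 kb (chr2:167542815-167607638), or 21.1 per 100 kb of eligible sequence. Its folds were 4.71 to 75.6, with 43.1 for the second highest (chr2:167563431-167564300), and 9 of the 12 lay within a run of 14.2 kb. Those 9 were nearest to Ube2v1, and the 43.1-fold peak lay 21.1 kb downstream of Snai1. Named after their values were seen, Thbd and Cd93, genes of endothelial surface proteins, enclosed 7 peaks in 28.5 kb (26.5 per 100 kb, up to 35.3-fold) and Tbx2 and Tbx4 6 peaks in 44.4 kb (14.1 per 100 kb, up to 14.8-fold). Other intervals with 5 or more peaks were denser than the Tbx2 interval. They included P2ry6 to P2ry2 (26.2 per 100 kb), Lect2 to Tgfbi (19.6) and Ercc6l2 to Hsd17b3 (14.9).

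**Figure D3:**
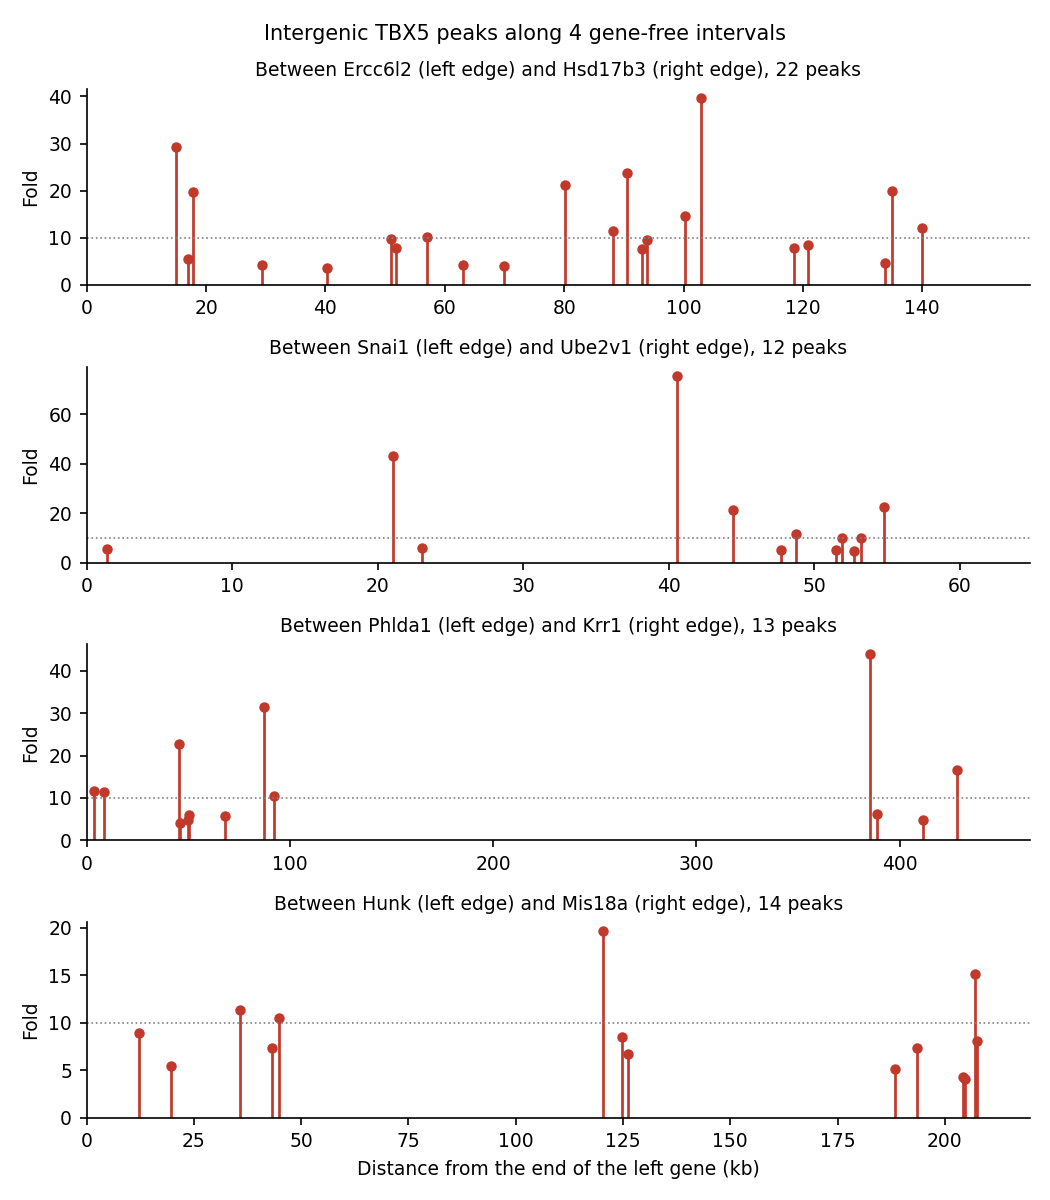
Fold enrichment (vertical axis from 0) of each intergenic peak along 4 intervals between protein-coding genes, by distance in kb from the end of the gene at the left edge, with 10-fold dotted. The 22 peaks between Ercc6l2 and Hsd17b3 are spread over the interval and reach 39.6-fold, while in the interval from Phlda1 to Krr1 the peaks lie within 100 kb of either gene by the rule.

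Runs of neighbouring peaks were common but not the main form. With summits at most 10 kb apart joined, the intergenic peaks made 4836 runs, 3624 of a single peak (54.6% of peaks) and 358 of 3 or more, which held 1310 peaks (19.7%). The share at 10-fold or more was 20.9% among single peaks (19.55 to 22.2%) and 27.9% in runs of 3 or more (25.5 to 30.4%), while the medians were 6.52 and 6.60-fold. The longest run, 10 peaks over 35.2 kb on chromosome 9 (chr9:35325081-35360598), had its strongest peak, of 33.7-fold, 61.7 kb upstream of the hedgehog co-receptor gene Cdon. Only 3 of the 10 were nearest to Cdon, and Rpusd4 was the gene on the other side of the strongest. Runs and densest intervals were described after the values had been seen.

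When every intergenic peak went to its closest gene, this gave 3327 of 21631 genes an intergenic peak, a background of 15.4%, and 1140 genes one at 10-fold or more, a background of 5.27%. There were 1851 genes with 1 such peak, 256 with 5 or more and 20 with 10 or more. A gene can only collect peaks from its flank, the eligible sequence nearer to it than to any other gene. The median flank was 79.0 kb for genes with a peak and 19.9 kb for all genes with a flank, so counts are given beside densities below.

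The genes with the most intergenic peaks included regulators and secreted factors. Nfib, a nuclear factor I gene needed for lung maturation, had 17, from 4.16 to 14.4-fold, with 2 at 10-fold or more. They lay 3.496 to 91.9 kb away on both sides of the gene, 8 of them on the side of Mpdz. Ercc6l2 had 15, Nrep 13, Hsd17b3 12 and Rad51b 12, all next to intervals given above. Cxcl12, which encodes a chemokine of mesenchyme that guides vessels and blood progenitors, had 13, up to 30.5-fold. Cd93 had 12, up to 41.3-fold, and Gm38821, of no known function, 12, up to 12.9-fold. Eya4, a transcriptional coactivator gene, had 11, of which 7 were at 10-fold or more (highest 39.6). Tgfbi, a matrix gene induced by TGF-beta, had 11 on a short flank of 47.4 kb (up to 30.97-fold). Number and strength thus differed: 2 of 17 peaks reached 10-fold at Nfib and 7 of 11 at Eya4.

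Among genes with intergenic peaks, larger shares also had peaks elsewhere, a description that carries no test. A peak within 1 kb of a gene end was present at 19.2% of genes with a flank and no intergenic peak, 29.6% of those with 1, 36.4% with 2 to 4 and 44.5% with 5 or more. A peak inside the gene was present in 16.0%, 36.2%, 49.0% and 58.6%. Median gene length ran with this, 16.7, 33.8, 39.8 and 45.3 kb, as did the median flank, 15.7 kb for genes without an intergenic peak and up to 120.4 kb for those with 5 or more, and their part in the result was not tested. Of the 3327 genes with an intergenic peak, 1333 (40.1%) had neither a gene-end peak nor one inside.

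The T-box genes of the lung had 2 to 8 intergenic peaks each. Tbx5 itself had 6, of 10.6, 8.42, 7.83, 6.39, 6.22 and 4.74-fold, all on the side of Tbx3 and 4.42 to 52.4 kb from the gene. The highest was at chr5:119776465-119776887. Tbx3, its neighbour, had 8, of which 1 stood far above the others: 24.5-fold at chr5:119667464-119668458, 2.84 kb from the gene, against 4.61 to 7.53-fold for the rest. Tbx2 had 7 on a flank of 23.3 kb, from 3.01 to 14.76-fold with 4 at 10-fold or more, and 6 of them lay within 4.64 kb of the gene on the side of Tbx4. Tbx4 had 2, of 6.49 and 6.13-fold. Strength at Tbx2 and Tbx3 was thus concentrated in a few sites close to the gene, and at Tbx5 only 1 site reached 10-fold.

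The strongest peaks of Foxf1 and Tcf21 lay far from the gene, while those of other genes of mesoderm lay at various distances. Foxf1, a forkhead gene of visceral mesenchyme that hedgehog signals induce, had 7 peaks, the highest 30.7-fold and 90.5 kb off (chr8:120993665-120994162). The second, 12.1-fold, lay 81.2 kb off, and the other 5 had 4.38 to 8.65-fold. Tcf21, a bHLH factor gene of lung mesenchyme, had 4, of 17.0-fold at 48.6 kb, 16.5-fold at 99.9 kb, 9.90-fold at 2.44 kb and 6.13-fold at 71.1 kb. Meis1, which encodes a TALE homeodomain factor, had 8, of which 7 lay downstream within 19.3 kb (up to 14.51-fold). Osr1, a zinc finger gene of early lung mesoderm, had 3, up to 8.48-fold. Gata4, a cardiac and visceral mesoderm factor gene, had 2, of 17.7 and 10.2-fold.

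The signalling genes of lung budding named here had 0 to 2 intergenic peaks each. Fgf10, the mesenchymal ligand that draws out the airway buds, had 2, of 10.8 and 7.53-fold. Wnt2b, a ligand that takes part in specifying the lung, had 1, of 17.7-fold, 1.304 kb upstream (chr3:104962413-104963233). Aldh1a2, which makes retinoic acid, had 1, of 7.01-fold. Ptch1 had 2, of 5.91 and 5.29-fold, and Hhip, another target and inhibitor of hedgehog signals, 2, of 7.07 and 4.31-fold. The flanks of these genes differed: 17.9 kb for Wnt2b, 95.5 for Ptch1, 104.7 for Aldh1a2, 192.0 for Fgf10 and 192.3 kb for Hhip. No intergenic peak was nearest to Wnt2, the partner of Wnt2b, to Bmp4 or Shh, ligands made by the epithelium, to Nkx2-1, the lung epithelial factor gene, to Nppa, a cardiac target of TBX5, or to Alb, the liver albumin gene. Their flanks were 5.85 kb for Nppa, 28.3 for Wnt2, 48.5 for Alb, 116.8 for Shh, 124.0 for Nkx2-1 and 194.0 kb for Bmp4.

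**Figure D4:**
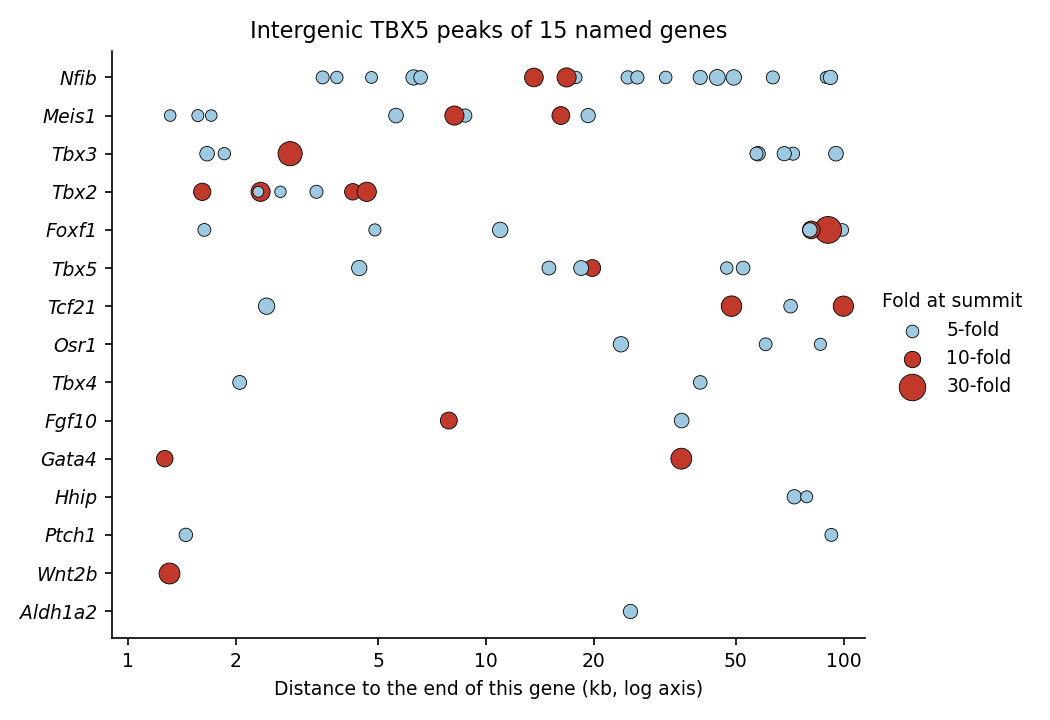
Each intergenic peak of 15 named genes by its distance in kb to the end of the gene (log axis), with point size following fold enrichment and red for 10-fold or more. The 7 peaks of Tbx2 lie within 5 kb of the gene, whereas the 30.7-fold peak of Foxf1 lies 90.5 kb away.

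Gene groups differed in how many of their genes had an intergenic peak. The 18 lists held 469 different genes, and 190 of them (40.5%) had one, against the 15.4% of all protein-coding genes given above. The lists were compiled by knowledge of the field and with earlier results of these data known, so their shares are a description and carry no test. Densities per Mb of flank are given beside them, with 8.58 per Mb over all genes, since list genes often have long flanks.

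Transcription factors of mesenchyme had the highest share, 27 of 34 genes, with 29.0 peaks per Mb of flank, and 20 of the 34 had one at 10-fold or more. Snai1 (43.1-fold), Gata6, a factor gene of visceral mesoderm and endoderm (39.6-fold, chr18:11044500-11044874), and Foxf1 led by −log10 q. Barx1, Foxc1, Nr2f1, Nr2f2, Prrx1, Twist2 and Zeb2 were among the others with a peak, while Foxc2, Osr2, Prrx2, Twist1, Meis2, Nkx2-3 and Ebf1 had none. The Hox genes, packed in clusters with a median flank of 1.12 kb, had a peak in 5 of 39. They included Hoxb1 (30.02-fold, 39.5 kb downstream) and Hoxc4 (5.67-fold).

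Hedgehog genes had a peak in 9 of 16 cases, with 26.8 per Mb of flank. Most of these genes stand on the receiving side of the pathway: Cdon (33.7-fold), the signal transducer Smo (23.0-fold, 8.44 kb upstream), Boc, Gas1, Gli2 and Gli3, and also Disp1, which releases the ligand (26.4-fold, 11.0 kb downstream). None was nearest to the ligand genes Shh, Ihh and Dhh. BMP and TGF-beta genes had one in 25 of 39 cases, with 25.2 per Mb. The ligand genes Inhba (39.1-fold, 46.9 kb downstream) and Bmp6 (24.9-fold) and the co-receptor gene Tgfbr3 (22.0-fold) led. Bmper and Smad6, both inhibitors of BMP signals, had 7 peaks each.

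FGF genes had a peak in 12 of 22 cases, with 19.6 per Mb. The receptor gene Fgfr2 had 6, up to 42.5-fold and 12.6 kb upstream (chr7:130278500-130279613), the MAP kinase phosphatase gene Dusp6 had 4 (24.6-fold) and the receptor gene Fgfr3 had 2 (23.1-fold). Of the ligand genes, Fgf18 had 3 (10.1-fold) and Fgf10 the 2 given above, and Fgf2, Fgf9 and Fgf20 had none. Fgf1 and Fgf7 have no eligible flank and could not be assigned a peak. Wnt genes had one in 22 of 44 cases, with 13.4 per Mb. Sfrp2, a secreted Wnt antagonist (20.2-fold, 54.6 kb upstream), Wnt2b and the receptor gene Fzd1 (17.9-fold, 91.5 kb downstream) led. Retinoic acid genes had one in 10 of 19 cases, with 22.3 per Mb, led by the receptor genes Rxra (28.8-fold), Rarb (23.6-fold) and Rxrg (10.8-fold).

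Structural genes of mesenchyme had dense flanks. Fibroblast and matrix genes had a peak in 19 of 30 cases, with 32.0 per Mb, led by the collagen genes Col1a1 (29.3-fold), Col6a1 (22.5-fold) and Col6a3 (10 peaks, up to 21.8-fold). Smooth muscle genes had one in 9 of 22 cases but 38.5 per Mb, the highest density of the 18 lists. The 32 peaks came from these 9 genes, and Itga8, an integrin gene, had 10 of them (up to 17.5-fold). Ednra, the endothelin receptor gene (16.6-fold), Mrtfb (10.95-fold), Myocd (8.52-fold) and Tpm1 (7.15-fold) had 4 each, while Cald1 had 1. The contractile genes Acta2, Cnn1 and Des had none, on flanks of 15.5, 6.34 and 22.7 kb, and Myh11 had 1 of 8.48-fold. Tagln has no eligible flank.

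Lists of other cell types and of other tissues spanned the background. Endothelial genes had a peak in 8 of 26 cases, with 17.8 per Mb, led by the factor genes Ets1 (25.8-fold) and Erg (13.7-fold) and the cadherin gene Cdh5 (7 peaks, 12.3-fold). Lung epithelium had one in 6 of 37 (5.42 per Mb), at Foxa2 (20.7-fold), Id2, which is also a BMP target of mesenchyme (19.3-fold), Trp63, Grhl2, Krt8 and Sox2. Among the 50% of peaks with the highest −log10 q this list had 3 of 37, against 9.79% of all protein-coding genes. When both flanking genes were counted it had 10 of 37, against 20.97% of all. Surfactant, secretory and ciliated cell genes on the list had none. Their flanks included 1.23 kb at Sftpc, 41.9 kb at Sftpd, 12.2 kb at Scgb1a1 and 11.0 kb at Foxj1. Neurons and glia had one in 4 of 18 (5.39 per Mb), at Nefm (12.6-fold), Sox10 (6.70), Snap25 (6.67) and Map2, and mesothelium in 2 of 10, at Aldh1a2 and Tbx18. Blood cells had one in 2 of 24, among them the leukocyte gene Ptprc (7.07-fold). Liver had one in 3 of 17, at Ttr (6.67-fold), Cps1 (5.65-fold) and Apob (4.62-fold).

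Because 2 libraries carry heart in their source field, the cardiac genes are of interest here. Cardiac transcription factors had a peak in 12 of 16 cases, with 13.3 per Mb, and 4 of the 16 had one at 10-fold or more: Irx5 (26.7-fold), Gata5 (22.5-fold), Gata4 (17.7-fold) and Nkx2-5 (15.01-fold). Counting only the stronger 50% of peaks by −log10 q, 5 of the 16 had one (31.25%), against 9.79% of all protein-coding genes. Several of these are also active in visceral mesoderm. Cardiac muscle genes had one in 7 of 28 cases, with 15.6 per Mb, led by the calcium release channel gene Ryr2 (29.5-fold, 26.7 kb upstream), Ankrd1 (20.3-fold) and the connexin gene Gja5 (9.02-fold). Nppa, Nppb, Tnnt2 and Actc1 were among those with none, on flanks of 5.85, 23.99, 9.05 and 29.9 kb, and Myh6 has no eligible flank. The list of peaks holds no expression values, and the tissue of each library was not tested.

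Genes of the cell cycle, used by every dividing cell, had a peak in 10 of 31 cases, with 17.0 per Mb, led by E2f3 (19.4-fold), Mycn (13.7-fold) and Myc (8.93-fold), and 2 of the 31 had one at 10-fold or more.

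**Figure D5:**
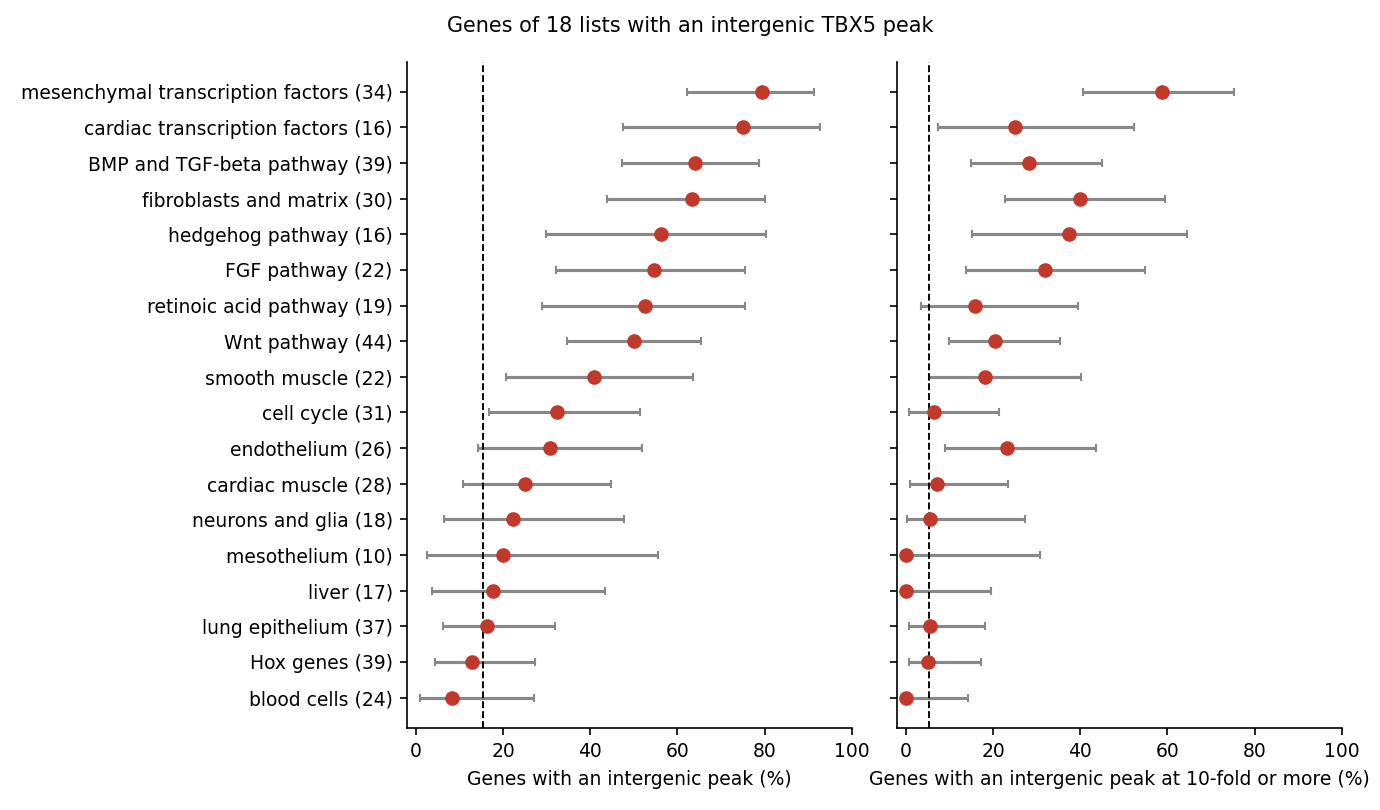
Percentage of genes with an intergenic peak (left) and with one at 10-fold or more (right) in 18 gene lists, with the number of genes in brackets, exact 95% binomial intervals as bars and the value over all protein-coding genes dashed (15.4% and 5.27%). Mesenchymal transcription factors are highest in both panels, and the intervals of Hox, lung epithelium, blood cell, neuron and glia, mesothelium, cardiac muscle and liver genes include the dashed lines in both panels.

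Most intergenic peaks carried no annotation of their own. Summits lay inside a lncRNA gene body in 1143 cases (17.2%), a pseudogene in 48, a tRNA gene in 17 and a miRNA gene in 3, of which 2 are the hairpins given above, and 5420 (81.6%) lay in none of the gene types examined. How much of the eligible sequence lies in these gene types was not measured, so the shares do not set the peaks apart from that sequence. The share at 10-fold or more was 24.5% in lncRNA bodies (22.0 to 27.1%) and 23.1% in the unannotated rest (22.0 to 24.3%). Named after their values were seen, the lncRNA with the highest peak was Gm11476, which spans both the 75.6-fold and the 43.1-fold peaks between Snai1 and Ube2v1. All 17 summits in tRNA genes were under 10-fold, with a median of 5.65.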

How the data were processed

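Per the submitters' processing notes, the tools were Bowtie2, SAMtools and MACS2, and the build was mm10. Their versions and settings, whether libraries were pooled and whether the input was used were not given in the sources used here. The deposited list gives each peak a score, a ratio (fold enrichment over local background), a −log10 q-value at the summit, and the summit's offset in bp (units read from the layout, as the list has no header; its name says that blacklisted regions were removed). These are the authors' values, were used only within the list, and depend on library depth, which is unknown.

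Genes, starts and sequences came from RefSeq tables of GRCm38.p6, with 21631 protein-coding genes, 17274 of them with strand. No genome was used, so motifs under all peaks were not examined. Positions are 1-based. All 469 list genes were matched, 1 of them by synonym; 3 stood in 2 lists. Density is peaks divided by eligible sequence. Intervals are exact 95% binomial or Poisson. The scripts were tested on simulated data. Python 3.11.15, numpy 2.4.6, pandas 2.3.3 and scipy 1.17.1 were used.

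Named were the genes on either side of the 20 peaks ranked first by −log10 q, the 10 genes assigned most peaks, the flanking genes of the 10 intervals with the most peaks, the 3 genes of each list with the highest −log10 q, and 20 further genes (Tbx5 to Alb); others are examples from the lists or were chosen after their values were seen. Some genes that this rule names are not reported here. Members and lists were chosen with earlier results of these data known. Alternatives changed the gene set, distance limits, peak position, overlap, assignment, chromosomes and strictness of the list.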

Additional observations from a re-analysis of the deposited data

How the results depend on the processing

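No paired analysis was possible because the deposited data are 1 list with no value per library, and for the same reason no replicate could be left out. Of the main results recomputed, 50 stayed within counting error or 1.5 times and 18 moved. With the 50% of peaks of highest −log10 q there were 3416 intergenic peaks and 2118 genes, a median of 9.42-fold, 45.3% at 10-fold or more, 36.5% among the 5000 highest, 36.1% with a neighbour within 10 kb, and a ratio of 0.839 between the densities at 1 to 2 kb and 50 to 100 kb (0.979 as reported). With peaks at 5-fold or more these were 7.45-fold, 29.2%, 23.6% and (neighbours) 44.98%; both settings remove weaker peaks by construction. With all annotated genes, the share at 10-fold or more was 24.8%, that among the 5000 highest 19.96%, that upstream 47.2%, that with a neighbour 48.0%, and the density ratio 1.54; the cause was not tested. The share with a neighbour was 50.8% over 5 kb and 53.9% up to 50 kb. Of the single-list counts, 47 stayed and 7 moved by over 1.5 times: among the stronger 50%, cardiac transcription factors fell from 12 to 5, lung epithelium from 6 to 3 and liver from 3 to 1, and with both flanking genes counted Hox genes had 8, lung epithelium 10, mesothelium 5 and liver 6. Over all protein-coding genes the share was 9.79% with the stronger 50% and 20.97% with both flanking genes, against 15.4% as reported. Without replicates or depth, weak peaks cannot be told from noise here.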

Other observations

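The deposited fold values were not continuous. Of the 6642 intergenic peaks, 2468 (37.2%, exact 95% binomial interval 36.0 to 38.3%) had a fold that is a whole multiple of 0.47119 within 0.0001, from the 8th to the 175th multiple. The commonest fold, 5.18, was shared by 271 peaks, and the 6642 peaks had only 1265 different pairs of fold and −log10 q. Such peaks made up 56.8% of those over 100 kb from genes, 36.2% of those inside genes, 26.6% at lncRNA ends and 7.65% at gene ends. Within the intergenic peaks the share was 21.0% from 1 to 2 kb, 27.2% from 2 to 5 kb, 34.1% from 5 to 10 kb and 43.3% from 50 to 100 kb. Equal folds of different peaks, such as those at Rgs4, Slc8a1 and Sh3d19, are of this kind in the list, and their order is arbitrary. The median fold was 6.60 on these multiples and 6.42 off them.

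Chromosomes differed in density. Autosomes ran from 5.83 intergenic peaks per Mb of eligible sequence on chromosome 7 (exact 95% Poisson interval 5.21 to 6.50) to 11.3 on chromosomes 11 and 13, and chromosome X had 1.86 (1.54 to 2.22; 120 peaks). The median fold on chromosome X was 6.19. The sex of the embryos and the mappability of the sequence were not analysed here.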
